A study of Mus musculus with 8 samples.

Results

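The 44 genes described here are genes that type I interferon induces in many mouse cells: transcription factors, sensors of foreign nucleic acid, and antiviral effector proteins with their regulators. They were taken from the deposited expression table by symbol, from a list of genes, and not by a threshold on their values. The table held 43 of the 44 (Mx2 was not analysed here), out of 13681 symbols in all, and all 43 were among the 12921 genes that passed the filter on low values.

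RNA was sequenced from 8 thymic lymphomas, tumours of developing T cells that arise in the thymus of mice lacking p53. All mice were C57BL/6 and p53-/-, and an adenovirus was injected into the tumour at 10 weeks of age, with tissue taken 48 hours later. The 2 control libraries carry the genotype ΔNfl/fl;p53-/- and received Ad-mCherry, a virus that expresses only a red fluorescent protein. The 3 ΔNp63Δ/Δ;p53-/- and the 3 ΔNp73Δ/Δ;p53-/- libraries received Ad-CRE-mCherry, which also expresses Cre recombinase; ΔNp63 and ΔNp73 are the shorter forms of the p53 relatives p63 and p73, which lack the N-terminal transactivation domain. These groups are called ΔNp63-labelled and ΔNp73-labelled below, and replicates carry numbers in the order of the sample records. Each comparison with control therefore sets virus and genotype together against the control, and their parts cannot be told apart. The control label leaves unnamed the floxed gene. An injected virus need not reach every tumour cell, and the labels give no pairs, batches or sex. The labels do not state that each library is a different animal, and p-values then reflect only how far these libraries spread, which may be technical.

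Type I interferons signal through a receptor made of IFNAR1 and IFNAR2, whose kinases TYK2 and JAK1 activate ISGF3, a transcription factor complex that includes STAT2 and IRF9 and binds the interferon-stimulated response element (ISRE) in promoters of its target genes. IRF7, itself a target, amplifies the response by inducing more interferon, while USP18 and SOCS1 dampen it. The induced proteins sense viral RNA and DNA, degrade or mask RNA, and block viral entry, replication and release; macrophages and plasmacytoid dendritic cells are prominent producers of interferon, and most nucleated cells can respond to it.

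The DNA letters that ISGF3 and the interferon regulatory factors contact are repeats of GAAA, and the promoters that show them best are printed here. These promoters were not used in choosing the genes, but the list is of interferon-induced genes. A high share with these letters therefore describes the list and not these tumours. RefSeq promoter windows (build GRCm38.p6, 250 bases before to 50 bases after each gene's start) were found for 33 of the 44 genes. GAAA, any 2 bases and GAAA again, searched on both strands as the only motif, were present in 15 of these 33 (45.5%) and in 1079 of all 27025 genes with a window (3.99%). The 15 were Bst2, Ddx58, Eif2ak2, Ifih1, Ifit1, Ifit3, Ifitm3, Igtp, Irgm1, Isg15, Oas1a, Oas1g, Oas3, Rsad2 and Stat2. The windows below are those with more than 1 match, and those of Stat2 and Eif2ak2, which come back in the comparison of the ΔNp73-labelled with the ΔNp63-labelled group. Each is written 5′ to 3′ on the gene's own strand, with the matched letters in capitals; a match on the other strand reads TTTC, 2 bases, TTTC.
Isg15: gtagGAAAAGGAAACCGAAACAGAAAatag
Bst2: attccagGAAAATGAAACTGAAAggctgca
Irgm1: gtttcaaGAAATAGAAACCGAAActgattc
Oas1a: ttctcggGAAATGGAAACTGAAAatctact
Ifit1, first: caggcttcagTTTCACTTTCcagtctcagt
Ifit1, second: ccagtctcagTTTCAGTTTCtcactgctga
Ifit3, first: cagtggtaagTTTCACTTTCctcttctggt
Ifit3, second: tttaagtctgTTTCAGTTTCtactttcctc
Ifitm3, first: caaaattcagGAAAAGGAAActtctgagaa
Ifitm3, second: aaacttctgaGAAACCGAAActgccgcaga
Stat2: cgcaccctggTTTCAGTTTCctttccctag
Eif2ak2: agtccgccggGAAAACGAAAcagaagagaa

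These windows lie on the minus strand for Isg15 (chr4:156200871-156200900), Bst2 (chr8:71537580-71537609), Irgm1 (chr11:48871428-48871457), Oas1a (chr5:120907523-120907552), Ifitm3 (chr7:141010723-141010752 and chr7:141010706-141010735) and Eif2ak2 (chr17:78882535-78882564). They lie on the plus strand for Ifit1 (chr19:34640775-34640804 and chr19:34640794-34640823), Ifit3 (chr19:34583363-34583392 and chr19:34583397-34583426) and Stat2 (chr10:128270266-128270295). The 30 bases of Oas1g (chr5:120887609-120887638, minus strand) are identical to those of Oas1a. Isg15 held 3 overlapping matches in a row, the most of any window here, and its whole 250 bases before the start (chr4:156200819-156201068, minus strand) are given to show where they sit.
Isg15 upstream: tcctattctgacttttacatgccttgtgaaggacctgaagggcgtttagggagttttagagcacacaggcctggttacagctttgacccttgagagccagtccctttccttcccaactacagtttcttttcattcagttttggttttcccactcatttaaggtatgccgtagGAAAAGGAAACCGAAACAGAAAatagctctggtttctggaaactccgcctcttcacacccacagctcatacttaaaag
The capitals lie in the 3′ part of the run, close to the gene's start. A match is a description of the letters and does not show that a factor was bound in these tumours.

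Depth is unknown, since the table holds FPKM values (fragments per kilobase of transcript, scaled to library size) that were quantile-normalised between libraries, a step that gives every library nearly the same distribution of values. The targeted gene Trp63 was at 5.21 and 3.38 in the controls, 6.58, 1.05 and 9.90 in the ΔNp63-labelled and 13.8, 11.3 and 6.38 in the ΔNp73-labelled libraries (FPKM of its highest entry). ΔNp63-labelled replicate 2 was the lowest of all libraries in this entry. It was also the lowest in further Trp63 entries, at 0.777 and 0.0394 FPKM, but not in the last entry, at 0.549. These levels do not settle the ΔNp63 label, their relation to the interferon-stimulated genes was not tested, and Trp73 was not analysed here. Markers of the labelled tissue were measured: all 16 thymocyte and T cell genes were in the table, among them Cd3e at 358 and 430.1 in the controls, 305, 237 and 419 in the ΔNp63-labelled and 235, 300.4 and 363 in the ΔNp73-labelled libraries. The median of the 16 was below the control mean in every library with Cre. It was lowest in ΔNp63-labelled replicate 2, at -1.44 on the log2 scale, and 1 of the 16 was under 1 FPKM there. The library ΔNp63-labelled replicate 2 stood apart over the whole table. Its median Pearson correlation with the other libraries across the 12921 tested genes was 0.848, against 0.915 to 0.957 for the others, genes being no independent replicates. It also differed in markers of cell types: its B cell genes summed to 8.28 FPKM against 38.0 to 75.6 elsewhere, Rag2, needed for antigen receptor rearrangement, was at 1.99 FPKM, and the cytotoxic granule gene Gzma at 981. Of the 9 natural killer and cytotoxic genes, Gzma was the only 1 over 1 log2 unit above the control mean in that library. Their median difference from the control mean there was -0.37 on the log2 scale, and 4 were under 1 FPKM. The labels do not show what sets ΔNp63-labelled replicate 2 apart. Because it decides the calls, each result on the ΔNp63-labelled group is given with it and without it, and the calls for the ΔNp73-labelled group are given both ways too, since all groups share 1 estimate of the spread.

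Most of the 43 genes were at a lower level in both controls than in 5 of the 6 libraries that received Cre. Their summed FPKM was 892.6 and 912.9 in the controls, 3553, 692.9 and 3525 in the ΔNp63-labelled libraries and 4038, 4070 and 2473 in the ΔNp73-labelled libraries. The controls were alike, with 32 of the 43 genes within 1.2-fold of each other. Relative to the control mean, the median gene stood at 2.78-fold, 1.02-fold and 3.55-fold in the ΔNp63-labelled libraries and at 3.49-fold, 4.42-fold and 2.21-fold in the ΔNp73-labelled libraries. Replicate 2 of the ΔNp63-labelled group thus sat at control level, and it was the lowest of its group for 42 genes and the lowest of all 8 libraries for 21. In the ΔNp73-labelled group replicate 2 was the highest of all 8 libraries for 37 genes, and replicate 3 was the lowest of its group for 38.

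**Figure D1:**
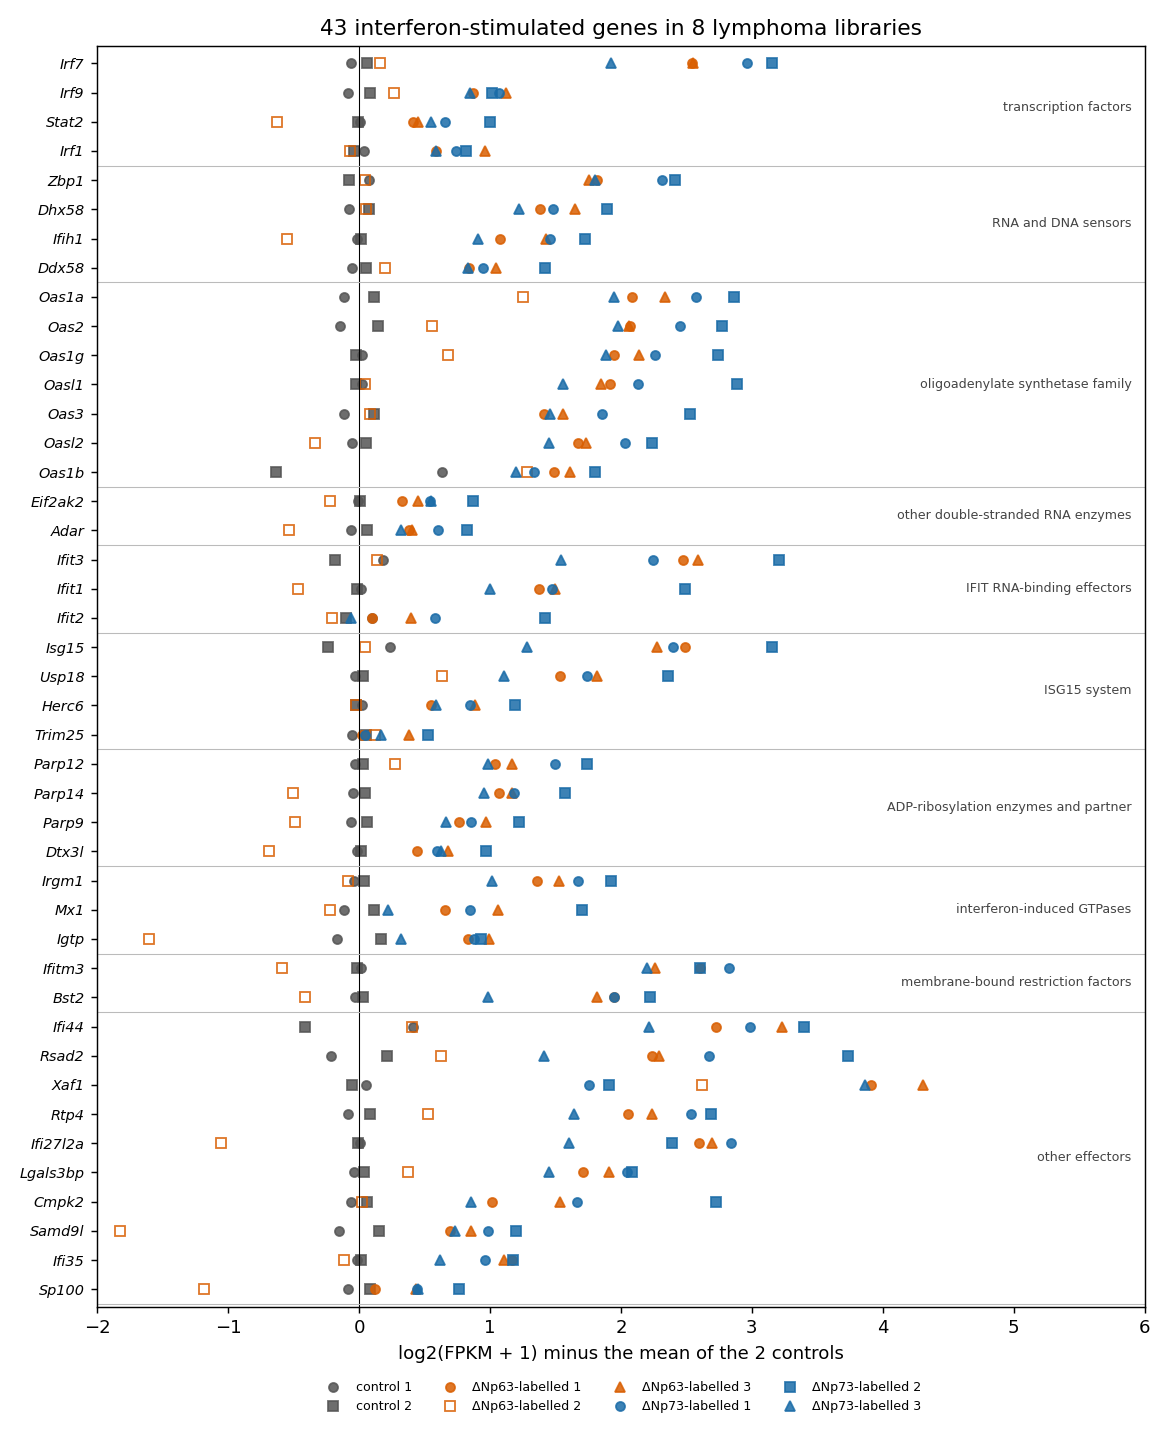
Level of each of the 43 interferon-stimulated genes in each library, as log2(FPKM + 1) minus the mean of both controls (x axis), with genes in rows by role; grey points are controls, orange ΔNp63-labelled and blue ΔNp73-labelled libraries, and the shape marks the replicate. The open squares, ΔNp63-labelled replicate 2, lie near 0 for most genes, while the other 5 libraries with Cre lie to the right of 0 for nearly all.

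No gene of the 43 passed an adjusted p of 0.05 against control in the model of all 8 libraries (limma, Benjamini-Hochberg over 12921 genes). In the ΔNp63-labelled group their median log2 fold change (log2FC, on the log2(FPKM + 1) scale) was 0.93, against -0.02 over all genes tested. Of the 43, 41 lay above 0, as 47.7% of all genes did, and Samd9l and Sp100 lay below. Called genes were 0 of 43, beside 0.0929% of all genes in either direction, with a lowest adjusted p of 0.164. At an unadjusted p under 0.05 there were 14, all higher, where 5.96% of all genes were. The groups did not overlap for 14 genes, all higher, against 12.6% of all genes. In the ΔNp73-labelled group the median log2FC was 1.54, against -0.07 over all genes, and all 43 lay above 0 (43.3% of all genes). Called genes were again 0 of 43 (0.0542% of all genes), with a lowest adjusted p of 0.0676, and 32 were higher at an unadjusted p under 0.05 (11.4% of all genes). For 41 of the 43 every ΔNp73-labelled library was above both controls, where 27.7% of all genes were; the exceptions were Ifit2 and Trim25.

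Without ΔNp63-labelled replicate 2, the other 2 libraries of that group gave 35 of the 43 genes as called higher and none lower. Over all genes 11.7% were called higher and 10.8% lower. Their median log2FC was 1.44, against -0.03 over all genes, and for 41 the 2 libraries lay above both controls, which 31.7% of all genes did. The 8 genes that did not pass were Stat2, Eif2ak2, Adar, Ifit2, Trim25, Mx1, Cmpk2 and Sp100. The same omission left the ΔNp73-labelled fold changes as they were and narrowed their errors, so that 40 of 43 were called higher in that group, against 16.8% of all genes; Ifit2, Trim25 and Mx1 were not. A model of the ΔNp73-labelled and control libraries alone, which also leaves that library out, called 38. The share of all genes that this model called was not tallied, so 38 cannot be set against it. In the mean of both groups against control 0 of 43 were called with all libraries (0.116% of all genes in either direction), and 27 were higher at an unadjusted p under 0.05 (9.34% of all genes). Without replicate 2, 39 were called higher, where 16.5% of all genes were.

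**Figure D2:**
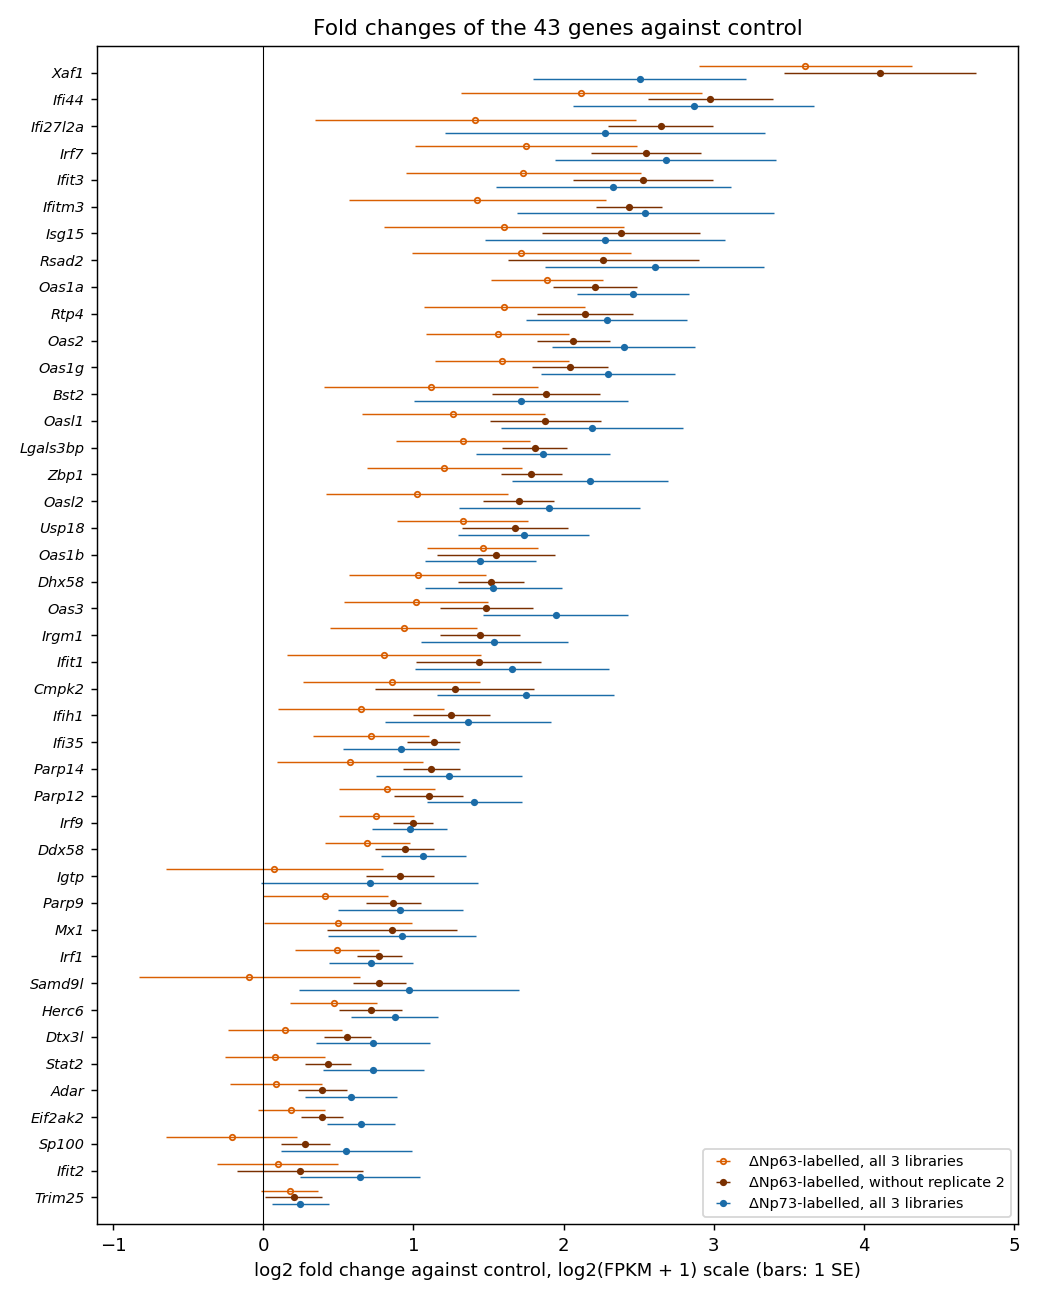
Log2 fold change against control of each of the 43 genes (x axis, log2(FPKM + 1) scale; bars are 1 standard error), with all ΔNp63-labelled libraries (open orange), without ΔNp63-labelled replicate 2 (dark brown) and for the ΔNp73-labelled group in the model of all libraries (blue). Open orange points lie to the left of the dark brown ones for nearly all genes and carry wider bars, and the dark brown median, 1.44, is close to the blue one, 1.54.

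Among the transcription factors, Irf7, the amplifier of the interferon response, showed the widest difference. Irf7 was at 8.25 and 9.10 in the controls, 55.4, 9.78 and 55.6 in the ΔNp63-labelled and 74.5, 84.9 and 35.7 in the ΔNp73-labelled libraries (FPKM). Its mean was 8.68 ± 0.602 FPKM in the controls (SD, n = 2) and 65 ± 26 in the ΔNp73-labelled group (SD, n = 3), a ratio of 7.50. Its log2FC in the ΔNp63-labelled group was 1.75 with all libraries (adjusted p = 0.379) and 2.55 without replicate 2 (adjusted p = 0.00475); in the ΔNp73-labelled group it was 2.68 (adjusted p = 0.12, and 0.00209 without that library). Irf9, the DNA-binding subunit of ISGF3, was at 7.54 and 8.61 in the controls, 15.6, 9.90 and 18.7 in the ΔNp63-labelled and 17.9, 17.3 and 15.3 in the ΔNp73-labelled libraries (FPKM), so that every library with Cre lay above both controls. Irf1, which responds to both interferon types, was at 24.5 and 23.2 in the controls, 36.4, 22.7 and 47.4 in the ΔNp63-labelled and 40.4, 42.9 and 36.5 in the ΔNp73-labelled libraries (FPKM), with only ΔNp63-labelled replicate 2 below the controls. Stat2, a subunit of ISGF3, was at 11.6 and 11.5 in the controls, 15.7, 7.12 and 16.2 in the ΔNp63-labelled and 18.8, 24.2 and 17.4 in the ΔNp73-labelled libraries (FPKM). Replicate 2 of the ΔNp63-labelled group held less Stat2 than any other library, and Stat2 was the only one of the 4 that did not pass in that group without it (log2FC 0.43, adjusted p = 0.0887). All 4 passed in the ΔNp73-labelled group in the model without that library.

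The sensors followed the same division of libraries. Zbp1, a sensor of left-handed nucleic acid that can trigger cell death, was at 11.9 and 10.6 in the controls, 42.1, 11.6 and 40.2 in the ΔNp63-labelled and 59.7, 64.1 and 41.5 in the ΔNp73-labelled libraries (FPKM). Its log2FC in the ΔNp73-labelled group was 2.17 (SE 0.52, adjusted p = 0.1), and 1.79 in the ΔNp63-labelled group without replicate 2 (adjusted p = 0.00234). Ifih1, which encodes the long double-stranded RNA sensor MDA5, was at 3.91 and 4.02 in the controls, 9.49, 2.39 and 12.3 in the ΔNp63-labelled and 12.6, 15.4 and 8.30 in the ΔNp73-labelled libraries (FPKM). Ddx58, which encodes the RNA sensor RIG-I, was at 10.1 and 11 in the controls, 19.6, 12.2 and 22.8 in the ΔNp63-labelled and 21.3, 29.8 and 19.5 in the ΔNp73-labelled libraries (FPKM). Dhx58, which encodes their regulator LGP2, was at 3.61 and 4.14 in the controls, 11.7, 4.05 and 14.3 in the ΔNp63-labelled and 12.6, 17.1 and 10.3 in the ΔNp73-labelled libraries (FPKM). For all 4 the ΔNp73-labelled libraries lay above both controls, and Ddx58 was the one sensor whose ΔNp63-labelled libraries all did so as well. All 4 passed in both groups without ΔNp63-labelled replicate 2 and none with it; their median log2FC in the ΔNp63-labelled group moved from 0.86 to 1.38 on leaving it out.

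The 7 genes of the oligoadenylate synthetase family, enzymes that make the second messenger which activates RNase L and their catalytically different relatives, had among the largest ratios to control. Oas1a was at 2.89 and 3.58 in the controls, 16.9, 9.08 and 20.3 in the ΔNp63-labelled and 24.2, 29.7 and 15.3 in the ΔNp73-labelled libraries (FPKM), and its ΔNp73-labelled mean was 7.12 times the control mean. Its adjusted p of 0.164 in the ΔNp63-labelled group (log2FC 1.89, SE 0.37) and of 0.0676 in the ΔNp73-labelled group (log2FC 2.46, SE 0.37) were the lowest of all 43 genes in the model of all libraries, the former shared with Xaf1. Oas1g was at 1.56 and 1.47 in the controls, 8.72, 3.02 and 10.1 in the ΔNp63-labelled and 11, 15.8 and 8.31 in the ΔNp73-labelled libraries (FPKM). Oas2 was at 0.881 and 1.29 in the controls, 7.70, 2.06 and 7.68 in the ΔNp63-labelled and 10.3, 13.2 and 7.20 in the ΔNp73-labelled libraries (FPKM). In these 3 genes even ΔNp63-labelled replicate 2 was over 1.5 times the higher control.

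Oas3, the long family member, was at 3.46 and 4.22 in the controls, 11.8, 4.10 and 13.2 in the ΔNp63-labelled and 16.5, 26.8 and 12.2 in the ΔNp73-labelled libraries (FPKM). Oasl1 was at 2.40 and 2.28 in the controls, 11.6, 2.44 and 11 in the ΔNp63-labelled and 13.6, 23.7 and 8.81 in the ΔNp73-labelled libraries (FPKM). Oasl2 was at 7.87 and 8.55 in the controls, 28.4, 6.28 and 29.5 in the ΔNp63-labelled and 36.6, 42.4 and 24.1 in the ΔNp73-labelled libraries (FPKM). These 3 set ΔNp63-labelled replicate 2 at or near the control level, unlike Oas1a. Oas1b, which is a transcribed pseudogene in the C57BL/6J reference, was at 1.43 and 0.0059 in the controls, 3.39, 2.81 and 3.78 in the ΔNp63-labelled and 2.96, 4.45 and 2.59 in the ΔNp73-labelled libraries (FPKM); it was nearly at 0 in control replicate 2, and all 6 Cre libraries lay above both controls. The median log2FC of the family was 1.46 in the ΔNp63-labelled group and 1.88 without replicate 2, and 2.19 in the ΔNp73-labelled group, and all 7 passed in both groups in the model without that library. Oas1a, Oas1b and Oas1g are related genes in 1 cluster on chromosome 5, so the share of reads given to each is uncertain, and they are not independent observations.

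Eif2ak2, which encodes the kinase PKR that halts translation on double-stranded RNA, and Adar, which edits double-stranded RNA, differed less. Eif2ak2 was at 11.5 and 11.6 in the controls, 14.8, 9.80 and 16.2 in the ΔNp63-labelled and 17.3, 22 and 17.4 in the ΔNp73-labelled libraries (FPKM). Adar was at 9.11 and 10.0 in the controls, 12.8, 6.27 and 13 in the ΔNp63-labelled and 15, 17.7 and 12.2 in the ΔNp73-labelled libraries (FPKM). Without ΔNp63-labelled replicate 2 neither passed in that group (adjusted p = 0.0833 and 0.13), and both passed in the ΔNp73-labelled group (log2FC 0.65 and 0.58, adjusted p = 0.00911 and 0.025).

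The IFIT genes encode proteins that bind viral RNA ends, and they lie in 1 region of chromosome 19, yet they differed from one another. Ifit3 was at 5.30 and 3.87 in the controls, 29.7, 5.10 and 32.2 in the ΔNp63-labelled and 25.3, 50.1 and 15.1 in the ΔNp73-labelled libraries (FPKM), a ratio of the means of 6.76 without ΔNp63-labelled replicate 2 and of 6.58 for the ΔNp73-labelled group. Ifit1 was at 11.6 and 11.3 in the controls, 31.2, 8.01 and 34.1 in the ΔNp63-labelled and 33.5, 68.7 and 23.9 in the ΔNp73-labelled libraries (FPKM), with ΔNp73-labelled replicate 2 well above all others. Ifit2 was at 15.8 and 13.6 in the controls, 15.7, 12.6 and 19.6 in the ΔNp63-labelled and 22.3, 40.9 and 13.9 in the ΔNp73-labelled libraries (FPKM). For Ifit2, ΔNp73-labelled replicate 3 and ΔNp63-labelled replicates 1 and 2 lay within or below the range of the controls. With libraries weighted alike, Ifit2 did not pass in either group, with or without ΔNp63-labelled replicate 2. Its log2FC in the ΔNp73-labelled group with all libraries was 0.64 (SE 0.40, adjusted p = 0.383). Array weights, 1 of the alternatives given below, called all 43 genes in the ΔNp73-labelled group, Ifit2 included. Without ΔNp63-labelled replicate 2, Ifit1 and Ifit3 passed in both groups. Ifit3 has a near-identical neighbour, so its reads may be shared.

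Isg15 encodes a ubiquitin-like protein that is conjugated to other proteins. It was at 22.7 and 16 in the controls, 112, 19.8 and 96.2 in the ΔNp63-labelled and 104, 177 and 47.9 in the ΔNp73-labelled libraries (FPKM). Its mean was 19.4 ± 4.68 FPKM in the controls (SD, n = 2), 75.9 ± 49.2 in the ΔNp63-labelled group and 109.9 ± 64.9 in the ΔNp73-labelled group (SD, n = 3 each), so the spread within both groups was wide. Without ΔNp63-labelled replicate 2 it passed in both (log2FC 2.38, adjusted p = 0.0208, and log2FC 2.28, adjusted p = 0.0128). Usp18, which removes ISG15 and blocks the interferon receptor, was at 6.35 and 6.71 in the controls, 20.8, 10.7 and 25.6 in the ΔNp63-labelled and 24.1, 37.7 and 15.2 in the ΔNp73-labelled libraries (FPKM), with all 6 Cre libraries above both controls. Herc6, a ligase for ISG15, was at 4.52 and 4.36 in the controls, 6.95, 4.35 and 9.03 in the ΔNp63-labelled and 8.78, 11.4 and 7.17 in the ΔNp73-labelled libraries (FPKM), and both Usp18 and Herc6 passed in both groups without that library. Trim25, a ligase that activates RIG-I, was at 17 and 18.3 in the controls, 17.9, 19.3 and 23.3 in the ΔNp63-labelled and 18.2, 25.9 and 19.9 in the ΔNp73-labelled libraries (FPKM). Its groups overlapped, and its log2FC with all libraries was 0.18 in the ΔNp63-labelled and 0.25 in the ΔNp73-labelled group. With libraries weighted alike, it did not pass in either group, with or without ΔNp63-labelled replicate 2. Array weights called it in the ΔNp73-labelled group.

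The ADP-ribosylation group comprises Parp9, Parp12 and Parp14, which attach ADP-ribose, and Dtx3l, the ubiquitin ligase that pairs with PARP9. Parp12 was at 3.89 and 4.11 in the controls, 9.25, 5.04 and 10.2 in the ΔNp63-labelled and 13.1, 15.7 and 8.89 in the ΔNp73-labelled libraries (FPKM), the one of the 4 whose ΔNp63-labelled libraries were all above both controls. Parp14 was at 9.16 and 9.79 in the controls, 21, 6.36 and 22.6 in the ΔNp63-labelled and 22.8, 30.1 and 19.3 in the ΔNp73-labelled libraries (FPKM). Parp9 was at 10.1 and 11 in the controls, 18.6, 7.19 and 21.5 in the ΔNp63-labelled and 19.8, 25.8 and 17.2 in the ΔNp73-labelled libraries (FPKM). Dtx3l was at 27.3 and 27.9 in the controls, 37.8, 16.8 and 44.9 in the ΔNp63-labelled and 42.2, 55.1 and 43 in the ΔNp73-labelled libraries (FPKM). In Parp9, Parp14 and Dtx3l ΔNp63-labelled replicate 2 was the lowest of the 8 libraries. All 4 passed in both groups without it, with log2FC from 0.56 for Dtx3l to 1.12 for Parp14 in the ΔNp63-labelled group. Parp9 and Dtx3l overlap in part on chromosome 16 (a gap of -557 bases). Without strand information, reads from the shared stretch cannot be told apart.

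Of the interferon-induced GTPases, Irgm1 and Igtp take part in defence against intracellular pathogens, and Mx1 restricts viruses but is a transcribed pseudogene in the C57BL/6J reference. Irgm1 was at 15.3 and 16.3 in the controls, 42.1, 14.9 and 47.5 in the ΔNp63-labelled and 52.7, 62.9 and 33.1 in the ΔNp73-labelled libraries (FPKM). Igtp, which responds to interferon gamma as well, was at 34.5 and 44 in the controls, 70.2, 12.2 and 78.3 in the ΔNp63-labelled and 72.5, 75.2 and 48.8 in the ΔNp73-labelled libraries (FPKM), and ΔNp63-labelled replicate 2 held 0.353 times the lower control. Leaving that library out moved the log2FC of Igtp from 0.07 to 0.91 (adjusted p = 0.0296). Mx1 was low, at 0.352 and 0.588 in the controls, 1.30, 0.259 and 2.06 in the ΔNp63-labelled and 1.64, 3.78 and 0.704 in the ΔNp73-labelled libraries (FPKM). With libraries weighted alike, it did not pass in either group, with or without ΔNp63-labelled replicate 2. Array weights called it in the ΔNp73-labelled group.

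Bst2, or tetherin, which holds budding virions at the cell surface, and Ifitm3, which blocks viral entry, were 2 of the 3 genes with the highest FPKM of all 43. Ifitm3 was at 173 and 169.8 in the controls, 1050, 114 and 825 in the ΔNp63-labelled and 1222, 1050 and 789.8 in the ΔNp73-labelled libraries (FPKM). Bst2 was at 92.9 and 97.1 in the controls, 369.7, 71.1 and 337 in the ΔNp63-labelled and 369, 447 and 189 in the ΔNp73-labelled libraries (FPKM). Every ΔNp73-labelled library and both other ΔNp63-labelled libraries lay above the controls, and ΔNp63-labelled replicate 2 below them. Without it Ifitm3 had the lowest adjusted p of the 43 genes in both groups (log2FC 2.43, SE 0.22, adjusted p = 0.00176 in the ΔNp63-labelled and log2FC 2.54, SE 0.20, adjusted p = 0.000783 in the ΔNp73-labelled group).

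The other effectors held both the widest differences and the exceptions. Ifi27l2a, a small membrane protein of the interferon response, was at 146 and 144 in the controls, 884, 69.4 and 949.6 in the ΔNp63-labelled and 1050, 766 and 443 in the ΔNp73-labelled libraries (FPKM). Ifi44 was at 8.67 and 4.46 in the controls, 47.1, 8.61 and 67.1 in the ΔNp63-labelled and 56.5, 75.5 and 32.8 in the ΔNp73-labelled libraries (FPKM), with the largest log2FC of the 43 in the ΔNp73-labelled group (log2FC 2.87, SE 0.80), though its controls differed by almost 2-fold. Rsad2, or viperin, which makes a chain-terminating nucleotide, was at 1.68 and 2.59 in the controls, 13.6, 3.79 and 14.2 in the ΔNp63-labelled and 18.8, 40.3 and 7.25 in the ΔNp73-labelled libraries (FPKM). Its neighbour Cmpk2, a mitochondrial nucleotide kinase, was at 1.90 and 2.15 in the controls, 5.11, 2.06 and 7.74 in the ΔNp63-labelled and 8.58, 19 and 4.48 in the ΔNp73-labelled libraries (FPKM). In both, ΔNp73-labelled replicate 2 was more than 2 times the next library, and Cmpk2 did not pass in the ΔNp63-labelled group even without replicate 2 (adjusted p = 0.127).

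Rtp4, a chaperone-like protein, was at 12.1 and 13.6 in the controls, 56.4, 18.9 and 64.1 in the ΔNp63-labelled and 79.3, 88 and 42.1 in the ΔNp73-labelled libraries (FPKM). Lgals3bp, a secreted galectin ligand, was at 40.3 and 42.6 in the controls, 138, 53.9 and 158 in the ΔNp63-labelled and 174, 179 and 115 in the ΔNp73-labelled libraries (FPKM); in both all 6 Cre libraries lay above both controls. Ifi35 was at 12.8 and 13.2 in the controls, 30.3, 11.9 and 29.1 in the ΔNp63-labelled and 26.2, 30.6 and 20.4 in the ΔNp73-labelled libraries (FPKM). Samd9l, a translation inhibitor, was at 21.3 and 26.5 in the controls, 39, 6.01 and 43.8 in the ΔNp63-labelled and 48, 55.9 and 40.2 in the ΔNp73-labelled libraries (FPKM). Sp100, a nuclear body protein, was at 70.3 and 79.2 in the controls, 81.3, 32.2 and 101 in the ΔNp63-labelled and 102, 128 and 102 in the ΔNp73-labelled libraries (FPKM). In Samd9l and Sp100 ΔNp63-labelled replicate 2 lay far below both controls, at 0.282 and 0.458 times the lower one, and the log2FC of the group turned from -0.09 to 0.77 and from -0.21 to 0.28 when it was left out. All 10 effectors passed in the ΔNp73-labelled group in that model, and all but Cmpk2 and Sp100 in the ΔNp63-labelled group.

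Xaf1, a protein that promotes apoptosis, followed another order of libraries than the rest. Xaf1 was at 4.74 and 4.33 in the controls, 82, 32.9 and 108 in the ΔNp63-labelled and 17.7, 19.7 and 79.5 in the ΔNp73-labelled libraries (FPKM). All 3 ΔNp63-labelled libraries, replicate 2 included, and ΔNp73-labelled replicate 3 were above 30 FPKM, while ΔNp73-labelled replicates 1 and 2, which were high for most other genes, were below 20. Its log2FC in the ΔNp63-labelled group, 3.61 (SE 0.71, adjusted p = 0.164), was the largest of the 43 genes, and it was 4.11 without replicate 2 (adjusted p = 0.00635). The Trp53 transcript, from the gene inactivated in all these mice, which lies on the same chromosome as Xaf1, was at 81 and 67.6 in the controls, 17.3, 16.1 and 46.4 in the ΔNp63-labelled and 66.1, 75.9 and 11 in the ΔNp73-labelled libraries (FPKM); it was chosen for mention after its values were seen. The 4 libraries with over 60 FPKM of Trp53 were the 4 with the least Xaf1, and both controls are among them. A relation between the levels of these genes was not tested.

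**Figure D3:**
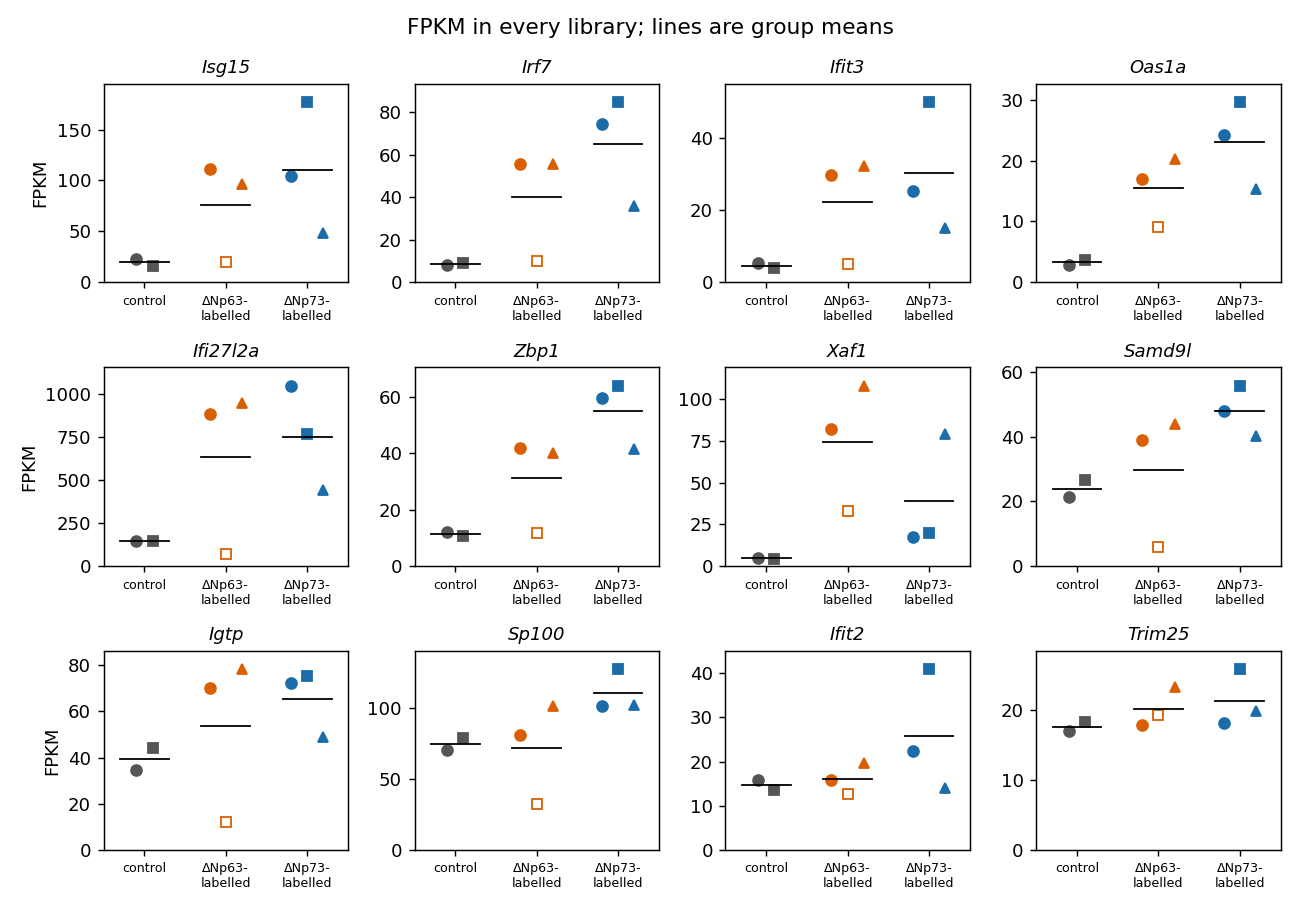
FPKM of 12 genes (one panel each, y axis from 0) in the control, ΔNp63-labelled and ΔNp73-labelled libraries; circles, squares and triangles are replicates 1, 2 and 3, the open square is ΔNp63-labelled replicate 2, and black lines are group means. Isg15, Irf7, Ifit3, Ifi27l2a and Zbp1 place that square near or below the controls, Oas1a and Xaf1 place it above them, Samd9l, Igtp and Sp100 far below, and Ifit2 and Trim25 show overlapping groups.

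ΔNp63-labelled replicate 2 was thus not at control level for every gene. It lay within 1.5 times of the range of the controls for 30 of the 43. It exceeded the higher control by more than that for 6 genes: Oas1a, Oas1b, Oas1g, Oas2, Usp18 and, at 6.94 times, Xaf1. It fell short of the lower control by more than that for 7: Stat2, Ifih1, Dtx3l, Igtp, Samd9l, Sp100 and Ifi27l2a.

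Between the ΔNp73-labelled and the ΔNp63-labelled group, both of which received the same virus, no gene of the 43 passed (lowest adjusted p = 0.473), beside 0.0542% of all genes called. None had an unadjusted p under 0.05 in limma, where 6.11% of all genes were higher and 4.4% lower at that level. The median difference was 0.60 on the log2 scale with all libraries, 41 genes having a higher value in the ΔNp73-labelled group, against 48.1% of all genes. Without ΔNp63-labelled replicate 2 it was 0.12, with 32 genes higher and 11 lower, against 48.9% of all genes higher; again none passed, beside 0.149% of all genes. For 3 genes, Stat2, Eif2ak2 and Sp100, every ΔNp73-labelled library was above every ΔNp63-labelled one, with and without replicate 2, where 10.3% of all genes were with all libraries and 15.9% without it. These 3 of the 43 are a smaller share than either, and they are named only as a description. Their differences were 0.66, 0.46 and 0.76 on the log2 scale with all libraries, and 0.30, 0.26 and 0.27 without it (adjusted p = 0.358, 0.368 and 0.425). Xaf1 was lower in the ΔNp73-labelled group by a log2 difference of -1.10 (SE 0.63, adjusted p = 0.513), and of -1.60 without replicate 2 (adjusted p = 0.273), where its groups no longer overlapped, as for 15.2% of all genes. With 3 libraries against 2 or 3, these p-values do not show that the groups are alike.

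Genes with and without the ISRE letters were both higher. The 15 genes with the paired GAAA in the window had a median log2FC of 1.72 (0.65 to 2.61) in the ΔNp73-labelled group, and the 18 genes with a window but without these letters one of 0.97 (0.25 to 2.87). In the ΔNp63-labelled group the medians were 1.02 and 0.74 with all libraries, and 1.49 and 1.05 without replicate 2. Level and number of matches did not run in 1 order: of the windows with more than 1 match, those of Isg15, Ifit3, Ifitm3, Oas1a and Oas1g belonged to genes above that median of the ΔNp73-labelled group, that of Bst2 to the gene at it, and those of Ifit1 and Irgm1 to genes below it (log2FC 1.66 and 1.54). Among the genes with 1 match were both the highest, Rsad2 (2.61), and the lowest, Eif2ak2 (0.65). The ranges overlapped over most of their length, and no test was made.

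Of the wider interferon pathway, 53 genes outside the 43 were listed and 30 were measured and passed the filter: 8 receptors and kinases, 13 signal transducers and 9 negative regulators. The 21 ligands listed, among them Ifnb1, the Ifna genes and Ifng, were not analysed here, so the level of interferon itself is not known. None of the 30 passed in any comparison in the model of all libraries; at an unadjusted p under 0.05, 4 were higher and 1 lower in the ΔNp63-labelled group, where 5.96% of all genes were higher and 7.03% lower, and 10 were higher in the ΔNp73-labelled group, where 11.4% of all genes were. Without ΔNp63-labelled replicate 2, 14 passed upward and 1 downward in the ΔNp63-labelled group, where 11.7% of all genes were called higher and 10.8% lower. In the ΔNp73-labelled group 16 passed upward and 2 downward, where 16.8% of all genes were called higher and 16.1% lower.

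The receptor chains differed in direction. Ifnar1 was at 13 and 13.9 in the controls, 16.7, 7.64 and 18.4 in the ΔNp63-labelled and 14.2, 15.4 and 14.4 in the ΔNp73-labelled libraries (FPKM). Ifnar2 was at 14.8 and 15.9 in the controls, 38.5, 12.1 and 31.3 in the ΔNp63-labelled and 40.3, 27.6 and 24.8 in the ΔNp73-labelled libraries (FPKM). Ifngr1, the binding chain of the interferon gamma receptor, was at 119 and 127 in the controls, 56.1, 18.8 and 68 in the ΔNp63-labelled and 81.5, 78 and 76.6 in the ΔNp73-labelled libraries (FPKM), so that every Cre library was below both controls. It was called lower in both groups without ΔNp63-labelled replicate 2 (log2FC -0.98, adjusted p = 0.00282, and -0.64, adjusted p = 0.00615). Ifngr2 was at 16.7 and 18.6 in the controls, 27.6, 15 and 28.3 in the ΔNp63-labelled and 28.1, 32.1 and 28.2 in the ΔNp73-labelled libraries (FPKM). Il10rb, a chain shared with the interferon lambda receptor, was at 12.7 and 13.2 in the controls, 28, 13.2 and 26.3 in the ΔNp63-labelled and 34, 31.7 and 24.6 in the ΔNp73-labelled libraries (FPKM). Both, like Ifnar2, were called higher in both groups in that model, while Ifnar1 passed only in the ΔNp63-labelled group (log2FC 0.36, adjusted p = 0.0452; in the ΔNp73-labelled group 0.347). Between the groups Ifnar1 differed by -0.24 on the log2 scale in that model, which did not pass (adjusted p = 0.295), and by 0.13 with all libraries (adjusted p = 0.828).

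The kinases differed little. Jak1 was at 64.1 and 62.1 in the controls, 68.9, 41.2 and 75.6 in the ΔNp63-labelled and 71.7, 84.5 and 84.3 in the ΔNp73-labelled libraries (FPKM). Jak2 was at 11.9 and 13.6 in the controls, 11.5, 9.31 and 15.5 in the ΔNp63-labelled and 16.8, 19 and 20.2 in the ΔNp73-labelled libraries (FPKM). Tyk2 was at 6.31 and 6.06 in the controls, 6.21, 4.62 and 6.76 in the ΔNp63-labelled and 6.69, 8.49 and 7.52 in the ΔNp73-labelled libraries (FPKM). Of these only Jak2 passed without ΔNp63-labelled replicate 2, in the ΔNp73-labelled group (log2FC 0.52, adjusted p = 0.0346). Among the signal transducers in that model, Irf5, Irf8, Tmem173 (the DNA sensing adaptor STING), Myd88 and Ikbke were called higher in both groups, with log2FC from 0.69 for Ikbke to 1.55 for Tmem173 in the ΔNp63-labelled group, and Irf2 in the ΔNp73-labelled group (0.38).

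Among the negative regulators Socs3, Trex1, Samhd1 and Nlrc5 passed upward in both comparisons without that library, and Ptpn6 in the ΔNp73-labelled group (log2FC 0.40). Trex1, a DNA exonuclease, was at 8.61 and 8.50 in the controls, 33.2, 10.1 and 28.2 in the ΔNp63-labelled and 37.6, 45.5 and 24.7 in the ΔNp73-labelled libraries (FPKM). Socs3, a feedback inhibitor of cytokine receptors, was at 3.20 and 3.96 in the controls, 16.1, 4.17 and 14.4 in the ΔNp63-labelled and 17, 15 and 12.1 in the ΔNp73-labelled libraries (FPKM). Socs1, the feedback inhibitor most tied to interferon, was at 28.1 and 25.4 in the controls, 30.8, 13.8 and 29.2 in the ΔNp63-labelled and 10.9, 16.5 and 19.2 in the ΔNp73-labelled libraries (FPKM). It was called lower in the ΔNp73-labelled group (log2FC -0.78, adjusted p = 0.0298 without ΔNp63-labelled replicate 2), where the rest of its role either passed upward or did not pass. Of 9 measured targets of interferon gamma outside the 43, 5 passed upward in the ΔNp63-labelled group without replicate 2 (Cxcl10, Cd274, Iigp1, Irgm2 and Ifi47) and 7 in the ΔNp73-labelled group (these and Ciita and Cxcl9), where 11.7% and 16.8% of all genes were called higher, with Socs1 as the 1 called lower.

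The summed markers of some other cells in the tumour, but not of all, moved with the interferon-stimulated genes. In bulk tissue, fewer cells of a type and less RNA per cell cannot be told apart. The 18 macrophage and monocyte genes in the table summed to 493.5 and 553.7 FPKM in the controls, 1503, 549.5 and 1487 in the ΔNp63-labelled libraries and 1848, 1703 and 1382 in the ΔNp73-labelled libraries, and none was under 1 FPKM in any library. By this sum the division of libraries was the same as for the interferon-stimulated genes, with ΔNp63-labelled replicate 2 within the range of the controls. By gene it was not wholly at control level. In that library 15 of the 18 lay above the control mean, with a median difference of 0.23 on the log2 scale. For 10 of the 18 all ΔNp63-labelled libraries, replicate 2 included, were above both controls, where 12.6% of all genes were. Of these 18, 17 passed upward in the ΔNp63-labelled group and 18 in the ΔNp73-labelled group without that library (11.7% and 16.8% of all genes), and none did in the model of all libraries. Fcgr1, a macrophage receptor for antibodies that interferon also induces, was at 1.25 and 1.22 in the controls, 30.3, 4.18 and 23.3 in the ΔNp63-labelled and 33.6, 35.6 and 16.1 in the ΔNp73-labelled libraries (FPKM). Csf1r, the macrophage growth factor receptor, was at 9.46 and 8.99 in the controls, 29.4, 11.9 and 24.6 in the ΔNp63-labelled and 35.2, 36.5 and 31 in the ΔNp73-labelled libraries (FPKM).

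The 11 neutrophil genes summed to 179.1 and 683.7 FPKM in the controls, 782.5, 59.1 and 784.3 in the ΔNp63-labelled and 956.4, 1597 and 1227 in the ΔNp73-labelled libraries; 5 of them, with Elane at 0, were under 1 FPKM in ΔNp63-labelled replicate 2. The 16 thymocyte and T cell genes summed to 5789 and 6557, to 3844, 2550 and 4992, and to 2707, 3503 and 4299, lower in every Cre library; without ΔNp63-labelled replicate 2, 1 of the 16 was called lower in the ΔNp63-labelled and 8 in the ΔNp73-labelled group, where 10.8% and 16.1% of all genes were. The 11 plasmacytoid dendritic cell genes, of which Bst2 is also one of the 43, summed to 694.1 and 832.8, to 791.6, 166.8 and 717.1, and to 743.5, 882.4 and 643.8; in the controls most of this sum was Ly6d and Ccr9, which thymocytes also express. Siglech, the defining one, was at 3.22 and 3.51 in the controls, 6.99, 1.09 and 3.35 in the ΔNp63-labelled and 4.49, 4.30 and 2.38 in the ΔNp73-labelled libraries (FPKM).

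Conventional dendritic cell genes (9 in the table) summed to 1067 and 1171, to 1453, 407.8 and 1766, and to 1674, 1654 and 1807 FPKM. The B cell genes (9) summed to 38.0 and 40.6, to 75.6, 8.28 and 50.9, and to 51.6, 48.7 and 48.8. The natural killer and cytotoxic genes (9) summed to 69.5 and 86.0, to 140.8, 997.3 and 155.8, and to 170.8, 140.2 and 89.9. Gzma made up most of that sum in ΔNp63-labelled replicate 2, where 4 of the 9 genes were under 1 FPKM. Fibroblast genes (12, Thy1 among them) summed to 1334 and 1588, to 877.1, 769.9 and 1021, and to 825.6, 868.0 and 1026. Endothelial genes (9) summed to 25.8 and 34.6, to 42.6, 33.0 and 40.6, and to 66.6, 53.3 and 38.3. Thy1, which T cells share, made up most of the fibroblast sum. Without ΔNp63-labelled replicate 2, 5 of 12 fibroblast genes passed upward in the ΔNp63-labelled group and 11 in the ΔNp73-labelled group (11.7% and 16.8% of all genes), and Thy1 lower in both. The part of these cell types in the levels of the interferon-stimulated genes was not tested.

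**Figure D4:**
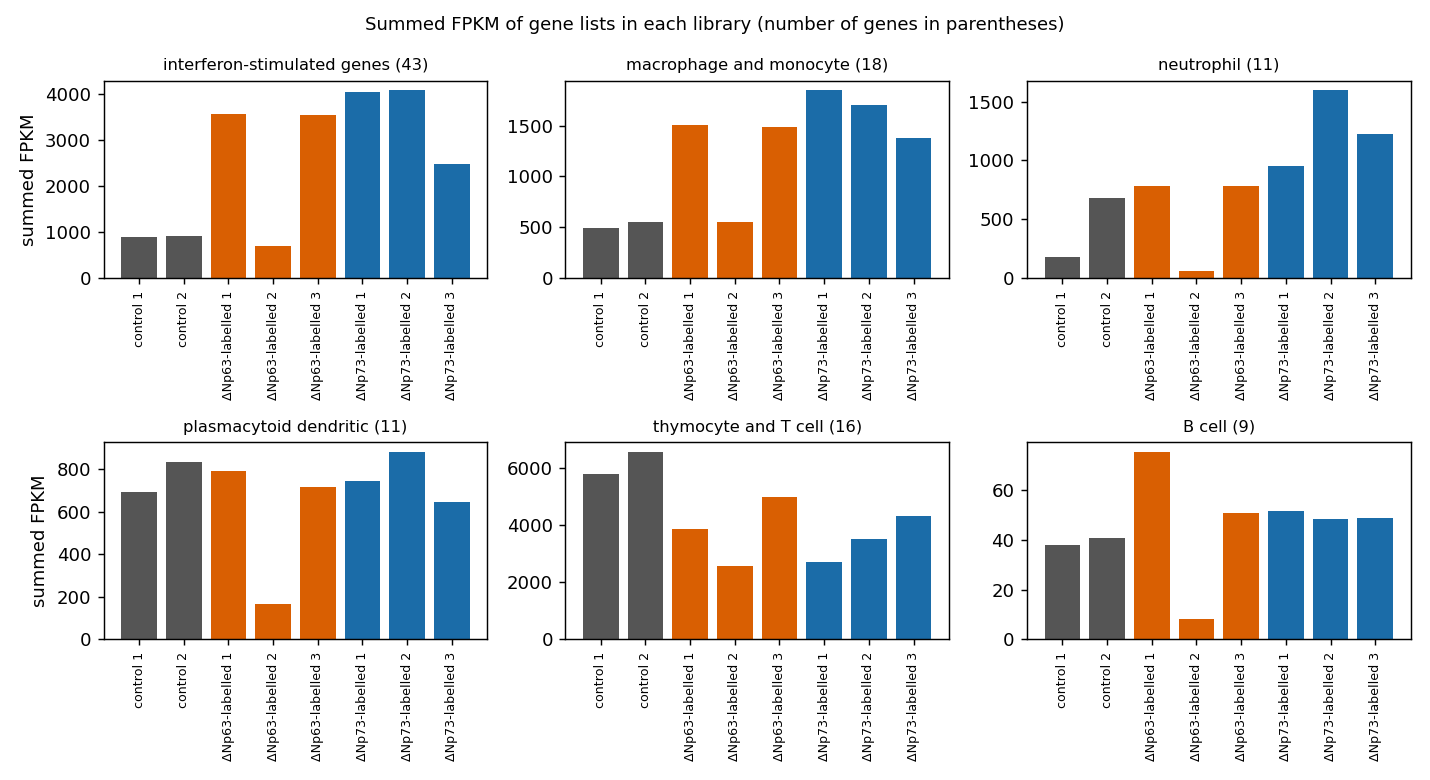
Summed FPKM (y axis, from 0) of the 43 interferon-stimulated genes and of 5 sets of cell type markers in each of the 8 libraries (bars; grey control, orange ΔNp63-labelled, blue ΔNp73-labelled). The interferon-stimulated and the macrophage and monocyte sums are both low in the controls and in ΔNp63-labelled replicate 2 (892.6, 912.9 and 692.9, and 493.5, 553.7 and 549.5 FPKM), while the thymocyte and T cell sum is highest in the controls.

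Several of the 43 genes are neighbours and so are not independent. The reference places Oas2, Oas3, Oas1b, Oas1g and Oas1a in 1 cluster on chromosome 5, with Oasl1 and Oasl2 elsewhere on it, Rsad2 beside Cmpk2 on chromosome 12, Parp14, Dtx3l and Parp9 on chromosome 16, and the 3 IFIT genes on chromosome 19. Neighbours could differ in level and in response: Ifit2 and Ifit3 are adjacent, and the ratio of the ΔNp73-labelled to the control mean was 1.75 for the former and 6.58 for the latter.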

How the data were processed

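RNA from thymic lymphoma tissue was extracted with TRIZOL LS and made into libraries with an Illumina TruSeq RNA kit, per the labels' protocols; strand is not stated. The authors deposited 1 table of FPKM per RefSeq transcript, quantile-normalised, per the file headers (16589 entries, 13681 symbols, 0 columns of no sample). TopHat2 2.0, Cufflinks 2.0 and build mm9 are named, with no roles, per the submitters' processing notes. Sorted values differed between libraries by over 1% at 2329 positions. The table holds no counts, so no counting interval is given. Symbols turned into dates (35) were restored from the RefSeq identifier.

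The entry with the highest mean was kept for each of the 2113 symbols with more than 1, and genes with at least 1 FPKM in at least 2 libraries were tested. limma 3.58.1 in R 4.3.3 (tested on simulated data) was fitted to log2(FPKM + 1) with 3 group means over all 8 libraries (5 residual degrees of freedom, empirical Bayes with trend, two-sided), and p-values were adjusted by Benjamini-Hochberg over all 12921 genes (12782 without ΔNp63-labelled replicate 2), threshold 0.05. The simulated data took their spread from the libraries other than ΔNp63-labelled replicate 2. They therefore do not show how the model behaves with a library that stands apart. Alternatives were a pseudocount of 0.1, no filter, summed entries, only the groups compared, array weights, and leaving out each library. The genes and gene lists were chosen with earlier results of these data known, so no list is tested. Per-library values are given for every one of the 43 genes, for receptors and kinases, and for other pathway genes past the threshold as examples; 1 pathway gene in the counts is not reported here by itself. Promoter sequences are RefSeq's, matched by symbol; coordinates are GRCm38.p6, not the authors' mm9.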

Additional observations from a re-analysis of the deposited data

How the results depend on the processing

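The calls against control depended on ΔNp63-labelled replicate 2. Leaving out each library in turn, the genes called of the 43 ranged from 0 to 35 in the ΔNp63-labelled group, 0 to 40 in the ΔNp73-labelled group and 0 to 39 in the mean of both, and of the 30 pathway genes from 0 to 15, 0 to 18 and 0 to 15; the upper end came each time from leaving out ΔNp63-labelled replicate 2, and every other omission gave 0. Array weights, which gave that library 0.0567, called 35, 43 and 41 of the 43 and 14, 24 and 21 pathway genes, and 1 pathway gene between the ΔNp73-labelled and ΔNp63-labelled groups. With only the ΔNp73-labelled and control libraries, 38 of the 43 and 16 pathway genes were called. The share of all genes called was not tallied for array weights or for the model of those libraries alone. The counts from these alternatives therefore do not show that the listed genes were called more often than others. A pseudocount of 0.1, no filter and summed entries left all counts at 0. The median log2FC of the 43 ranged over all alternatives from 0.65 to 1.44 in the ΔNp63-labelled group, 1.27 to 1.80 in the ΔNp73-labelled group, 1.13 to 1.60 in the mean of both and 0.12 to 0.95 between the groups. Between the groups, leaving out ΔNp63-labelled replicate 2 moved the split of the 43 from 41 higher and 2 lower in the ΔNp73-labelled group to 32 and 11. Signs of single genes were compared over the alternatives for the contrasts of each group with control, and there they turned in the ΔNp63-labelled group and in none of the alternatives for the ΔNp73-labelled group. Over the omissions of 1 library the log2FC ranged from -0.11 to 0.43 for Stat2, -0.075 to 0.40 for Adar, -0.12 to 0.56 for Dtx3l, -0.38 to 0.91 for Igtp, -0.052 to 0.25 for Ifit2, -0.57 to 0.77 for Samd9l and -0.53 to 0.28 for Sp100. The first 4 fell below 0 without ΔNp63-labelled replicate 1 or 3, Igtp also without control replicate 1, and Ifit2 without ΔNp63-labelled replicate 3 or control replicate 2. Samd9l rose above 0 without ΔNp63-labelled replicate 2 or control replicate 2, and Sp100 without the former; array weights gave 0.69 and 0.20 for this pair. The cause was not tested. With a control left out, the lone control is assumed to vary like the other groups. No paired analysis was possible because the labels carry no replicate numbers. The restricted model was not run for the mean of both groups, which already uses every library.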

Other observations

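For 6 of the genes the table held more than 1 transcript entry, and the entries not used above gave these values. Values are FPKM for controls 1 and 2, then ΔNp63-labelled replicates 1 to 3, then ΔNp73-labelled replicates 1 to 3. One further Irf7 entry stood at 5.94 and 5.39, at 35.3, 9.56 and 48.0, and at 55.6, 67.5 and 23.7. The last Irf7 entry stood at 1.92 and 3.08, at 18.3, 1.61 and 17.2, and at 21.1, 22.0 and 9.51, so that both had ΔNp63-labelled replicate 2 lowest of its group, as in the main entry. The further Irf9 entries did so too, at 3.38 and 3.50, 7.76, 4.34 and 9.84, and 8.39, 10.5 and 6.44, and at 1.42 and 1.45, 4.63, 1.94 and 5.16, and 4.11, 8.33 and 3.34. The second entries of Irf1 and Ifih1, which were low, had that library highest of its group: Irf1 at 0.0498 and 0.315, 0.203, 1.43 and 0.164, and 0.601, 0.182 and 1.81e-08, and Ifih1 at 0.905 and 0.506, 0.205, 0.592 and 0.159, and 0.492, 1.002 and 0.896. The second Zbp1 entry was at 8.07 and 7.83, 24.6, 7.85 and 25.4, and 29.0, 38.5 and 21.5 FPKM. Adar differed by entry: its second was at 2.46 and 1.85, 3.59, 0.0399 and 6.48, and 1.52, 4.79 and 5.06, and its last at 3.09 and 2.42, 2.31, 2.99 and 1.80, and 2.40, 2.30 and 2.39, so that all 3 ΔNp73-labelled libraries of the last lay below both controls while those of the main entry lay above them. The split of reads between entries of 1 gene is an estimate. These entries were chosen for mention after their values were seen.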
